A study of Mus musculus with 47 samples.

Results

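The 4 Id genes, Id1, Id2, Id3 and Id4, and the 3 E-protein genes, Tcf3, Tcf4 and Tcf12, were described across myogenic differentiation of C2C12 cells, an immortalised mouse myoblast line, with and without doxycycline (dox) induction of MyoD1 or of an adhesion molecule. These are 7 of the 45706 genes in the deposited RNA-seq tables. They were taken by symbol alone, and each symbol matched 1 gene identifier.

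E-proteins are broadly expressed transcription factors of the basic helix-loop-helix (bHLH) class. They pair with tissue-restricted bHLH factors such as MyoD1 and Myogenin, and the pair binds the E-box, a short DNA element with the letters CANNTG. Tcf3 encodes the E2A proteins, Tcf4 the protein ITF2 (also called E2-2), and Tcf12 the protein HEB. Id proteins carry the helix-loop-helix but lack the basic region that touches DNA. They bind E-proteins, keep them from MyoD1, and are known to hold growing myoblasts back from differentiation. Id genes are classical targets of bone morphogenetic protein (BMP) signalling through Smad proteins and of serum growth factors. The Tcf4 meant here is the E-protein gene, not Tcf7l2, the Wnt effector that is often called by the same name.

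The 47 libraries fell into 16 groups of 3, except that the dox-treated myoblast-enriched group had 2. Every line carried a dox-inducible construct, so untreated samples were the same engineered cells given no dox. The iMyoD1 line was a polyclonal population with endogenous MyoD1 and inducible Halo-MyoD1 under a TRE3G promoter, inserted with PiggyBac transposase, and dox switched the protein on in only a part of the nuclei. Its 0 h cultures stayed in serum-rich growth medium and had dox or vehicle for 24 h, whereas at 24, 48 and 120 h dox was added together with serum withdrawal. Cultures at 120 h were sequenced whole, or after mild trypsin and a 40 µm strainer as the flow-through (myoblast-enriched, mononucleated cells) and the retained material (myotube-enriched). The iCdh23 and iMcam lines, with inducible Cdh23 (a cadherin) or Mcam (an immunoglobulin-type adhesion molecule), were sequenced at 48 h. Unmodified C2C12 cells given dox were not analysed here, so dox itself and the induced gene cannot be told apart.

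Libraries held 15066362 to 50950707 estimated counts (median 22837955). The 12 libraries of 0 and 24 h carry no batch label and the others share 1 label, so the step from 24 to 48 h and the batch cannot be told apart. Myod1 itself did not rise with dox at 48 h (294.9 to 322.8 CPM, the count scaled to library size, with dox against 382.0 to 391.4 without), and whether the reference held the transgene is not given in the sources used here, so it does not check the labels. Cdh23 was 425.7 to 568.1 CPM with dox and already 347.7 to 450.6 without dox in the iCdh23 line, against at most 57.2 in any library of the other lines. Mcam was 69.0 to 74.7 CPM with dox and 17.1 to 19.8 without in the iMcam line, and it also stood at 45.7 to 54.6 in the dox-treated iCdh23 cells. The summed level of 10 myotube markers went from a mean of 2.40 CPM at 0 h to 13260 at 48 h and 16740 at 120 h in untreated iMyoD1 cultures, and 7 myoblast markers summed to 522.6 to 4392 CPM across the groups. Markers of macrophages, osteoblasts, endothelium and adipocytes summed to group means of at most 17.1, 3.61, 1.14 and 16.9 CPM, with Adipoq, Plin1, Cidec and Adgre1 at 3 counts or fewer in every library. Neural markers reached 32.8 CPM at 0 h, with Rbfox3 and Sox10 at 3 counts or fewer in every library. The 3 libraries of the dox-treated myotube-enriched group were unlike one another, with mean correlations within the group of 0.892, 0.903 and 0.920 where every library of the other groups had at least 0.961. The first was the lowest, and the group is given with and without it.

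RefSeq promoter windows on GRCm38.p6 were at hand for 5 members, and the stretches free of annotated exons are shown because the partners of these proteins bind E-boxes and BMP-responsive Smads bind a GC-rich element. Capitals mark CANNTG or the letters GGCGCC, each of which reads the same on both strands, and each sequence runs 5′ to 3′ along its gene. The Id2 stretch is chr12:25096254-25096342, the Id4 stretch chr13:48260866-48261115, the Tcf3 stretch chr10:80433648-80433885 and the first Tcf12 stretch chr9:72111872-72112069, with Id4 on the plus strand and the others on the minus strand.
Id2: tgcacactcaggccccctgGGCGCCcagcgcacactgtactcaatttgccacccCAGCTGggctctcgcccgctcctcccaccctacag
Id4: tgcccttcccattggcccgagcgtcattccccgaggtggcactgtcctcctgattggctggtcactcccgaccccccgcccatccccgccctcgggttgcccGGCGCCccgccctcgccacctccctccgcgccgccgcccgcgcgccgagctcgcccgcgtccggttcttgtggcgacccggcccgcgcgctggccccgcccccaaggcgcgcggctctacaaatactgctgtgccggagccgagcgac
Tcf3: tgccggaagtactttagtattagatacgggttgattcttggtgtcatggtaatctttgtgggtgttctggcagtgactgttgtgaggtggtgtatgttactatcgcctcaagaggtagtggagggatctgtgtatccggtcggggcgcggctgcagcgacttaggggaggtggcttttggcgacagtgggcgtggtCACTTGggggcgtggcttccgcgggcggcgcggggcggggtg
Tcf12: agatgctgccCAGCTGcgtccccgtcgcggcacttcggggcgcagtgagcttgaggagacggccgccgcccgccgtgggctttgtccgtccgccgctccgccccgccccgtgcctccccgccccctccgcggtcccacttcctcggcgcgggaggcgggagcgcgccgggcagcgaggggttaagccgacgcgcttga
The Id2 stretch held GGCGCC 231 bases and CAGCTG 196 bases before the RefSeq start, and it lies within an intron of the longer annotated Id2 gene. The Id4 stretch held GGCGCC 148 bases before the start and no E-box. Tcf3 held the E-box CACTTG 54 bases before its start, and Tcf12 held CAGCTG 240 bases before its start. Of 2 further Tcf12 windows, 1 held the E-box CAAGTG 149 bases before its start and 1 lay wholly in annotated exons. The Id3 window lay wholly in annotated exons and held none of these letters. Among 32851 promoter windows of 250 bases, 66.2% held CANNTG, 13.0% held CAGCTG (itself a CANNTG) and 9.59% held GGCGCC. These are matches of letters, not sites.

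On GRCm38 the members lay at chr2:152736251-152737410 (Id1), chr12:25093799-25097140 (Id2), chr4:136143497-136145755 (Id3), chr13:48261228-48266026 (Id4), chr10:80409514-80433647 (Tcf3), chr9:71842688-72111871 (Tcf12) and on chromosome 18 (Tcf4). Id1, Id3, Id4 and Tcf4 are on the plus strand. Id4 was the only member sharing exon bases with other genes, and both of those, A330033J07Rik and Gm49291, are on the opposite strand. In the plot of member levels by library, Id2 and Id3 ran over a wider range of group means than any E-protein gene, and Id1 over a range nearer that of Tcf3. In CPM the highest group mean was 58.4 times the lowest for Id2, 49.7 times for Id3 and 9.70 times for Id1. For Id4 no such ratio is given, since its lowest group, dox-treated cells at 24 h, held 1 to 2 counts a library. The same ratio was 7.05 for Tcf3, 2.63 for Tcf4 and 2.27 for Tcf12. Per length, in TPM (counts scaled to transcript length and to the library's total), single libraries ran from 6.34 to 496 for Id3, from 10.2 to 95.7 for Id1, from 1.44 to 98.7 for Id2 and to no more than 0.434 for Id4. The E-protein genes ran from 12.9 to 162 TPM for Tcf3, from 26.5 to 245 for Tcf12 and from 32.6 to 151 for Tcf4.

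**Figure D1:**
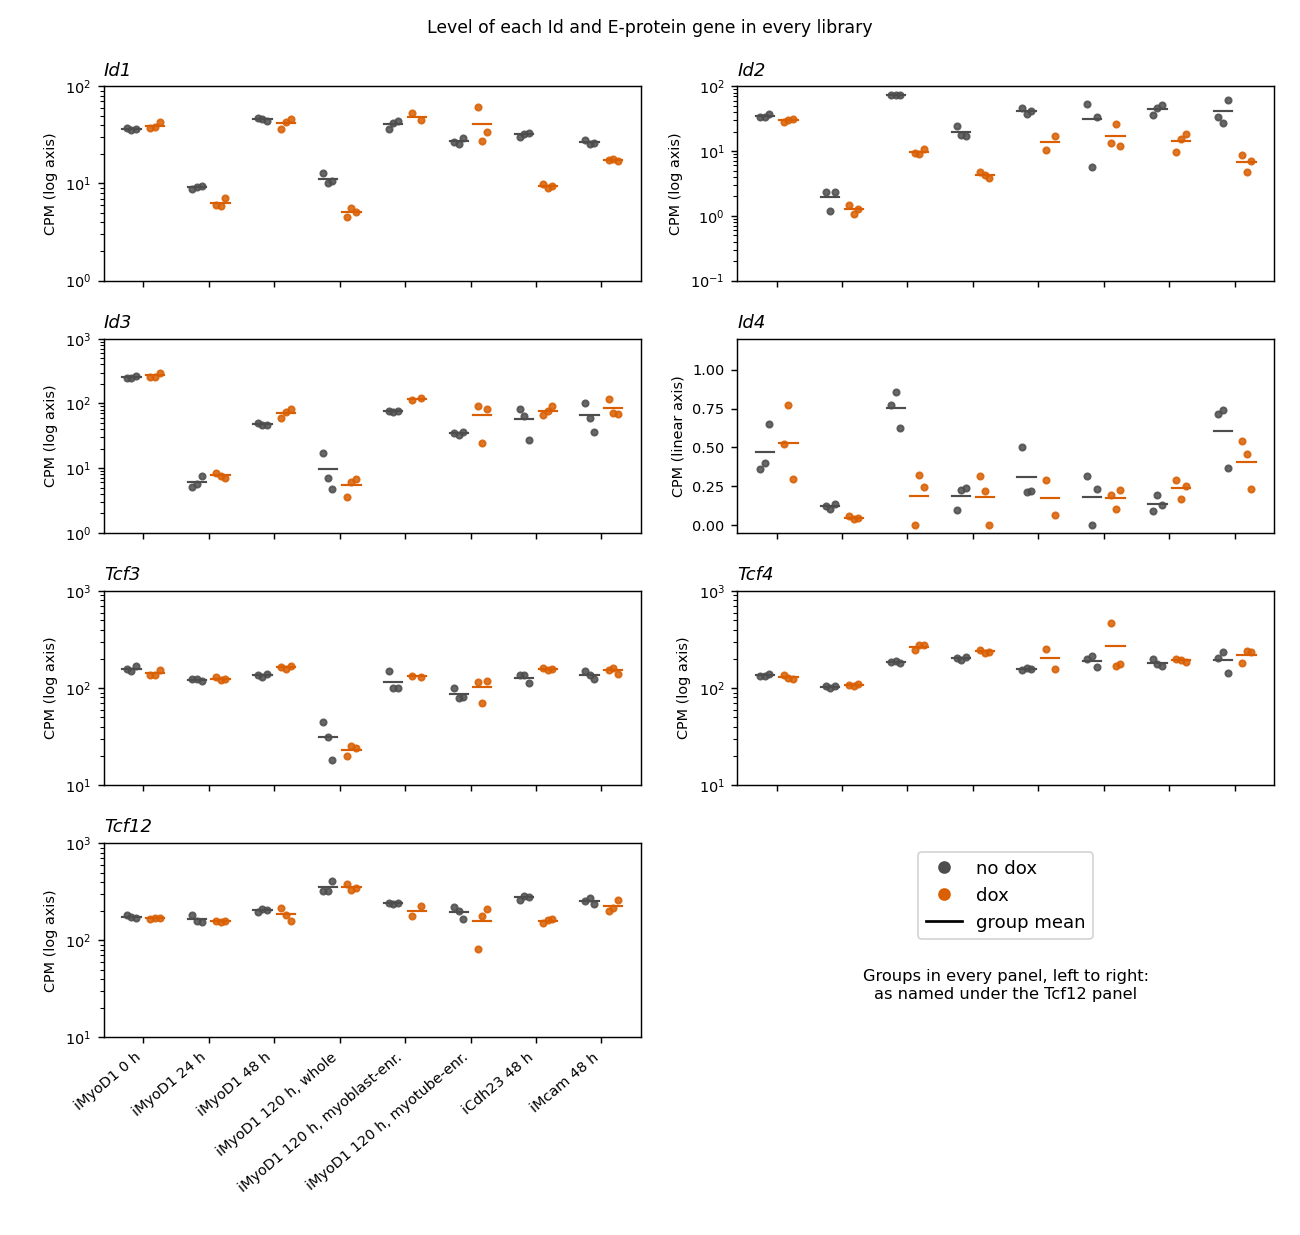
Level of each member in every library in CPM (log axes, linear for Id4), by group along the x axis, with points for libraries, short lines for group means, grey for no dox and orange for dox. Id1, Id2 and Id3 dip at 24 h, come back at 48 h and are low again in whole cultures at 120 h, while Tcf3 is lowest in whole cultures at 120 h and Tcf12 highest there.

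In untreated iMyoD1 cells Id1, Id2 and Id3 fell within the first 24 h of serum withdrawal, and by far more than Tcf3 and Tcf4. Id3 was at 244.3, 251.1 and 267.6 CPM in growth medium and at 5.08, 5.78 and 7.62 CPM at 24 h, and fell by 5.32 on the log2 scale (40.0-fold, SE 0.11, adjusted p = 1.06e-13). Adjusted p-values here and below come from edgeR's quasi-likelihood test with Benjamini-Hochberg adjustment over all genes tested, with 0.05 as the threshold. In bulk RNA, fewer cells of a type and less RNA per cell cannot be told apart.

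Id2 was at 34.2, 34.0 and 37.5 CPM at 0 h and at 2.32, 1.17 and 2.35 CPM at 24 h. It fell by 4.15 on the log2 scale (17.7-fold, SE 0.17, adjusted p = 5.09e-11). Id1 was at 37.5, 35.5 and 36.7 CPM and then 8.77, 9.12 and 9.45 CPM, and fell by 1.97 (3.91-fold, SE 0.08, adjusted p = 4.79e-11). No 24 h library of Id1, Id2 or Id3 reached the lowest 0 h library. Among the E-protein genes, Tcf3 went from 156.4, 148.5 and 169.5 CPM to 124.1, 124.9 and 117.6 CPM and fell by 0.34 (SE 0.06, adjusted p = 0.000183). Tcf4 went from 133.8, 133.6 and 139.8 CPM to 104.8, 100.1 and 104.5 CPM and fell by 0.36 (SE 0.05, adjusted p = 3.06e-05). The groups did not overlap for Tcf3 or Tcf4, but the differences were small, and both calls were lost when all 16 groups shared 1 estimate of spread (adjusted p = 0.117 and 0.150). Tcf12 overlapped between 0 h (181.9, 174.4 and 171.2 CPM) and 24 h (181.3, 156.8 and 155.7 CPM), with a log2 difference of -0.06 (adjusted p = 0.411). Without the first 24 h replicate that difference was -0.13 with an adjusted p of 0.0397. In all, 5 of the 6 members tested fell and 0 rose, where 74.3% of the 13632 genes tested were called in either direction. Id4 was under the low-count filter in this comparison. Over the same step the 7 proliferation markers went from a summed mean of 2751 to 875 CPM, with 7 of 7 called down, and the 7 myoblast markers from 779 to 526 CPM, with 5 called down and 2 up. Their part in the members' changes was not tested.

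From 24 to 48 h every member was higher, in the step that cannot be told apart from the batch. Id2 rose from the values above to 74.0, 74.9 and 73.5 CPM, by 5.26 on the log2 scale (38.3-fold, SE 0.14, adjusted p = 9.3e-13), and so stood above its level in growth medium. Id3 rose to 49.5, 45.6 and 46.7 CPM, by 2.94 (7.66-fold, SE 0.12, adjusted p = 5.49e-11), and stayed under its level in growth medium. Id1 rose to 47.0, 45.9 and 44.5 CPM, by 2.33 (5.04-fold, SE 0.07, adjusted p = 5.14e-12). The 3 abundant Id genes thus came back to different points relative to 0 h, and their order changed, with Id3 first in CPM at 0 h and Id2 first at 48 h. Id4 was barely detected, with 3, 3 and 4 counts at 24 h and 13, 16 and 14 counts at 48 h, and rose by 2.56 (SE 0.46, adjusted p = 0.000197).

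Among the E-protein genes, Tcf4 rose most, to 184.1, 190.5 and 182.8 CPM, by 0.85 (SE 0.06, adjusted p = 9.5e-09). Tcf12 rose to 198.1, 212.7 and 207.1 CPM, by 0.33 (SE 0.07, adjusted p = 0.000583), a call lost when all 16 groups shared 1 estimate of spread (0.171). Tcf3 rose to 136.1, 129.9 and 140.2 CPM, by 0.15 (SE 0.06, adjusted p = 0.0289), and that call was lost in 6 of 12 alternatives. It was lost without the third 24 h library (adjusted p = 0.0862) and without the first (0.0702) or the third (0.0974) 48 h library. Proliferation markers went from 875 to 1330 CPM and myoblast markers from 526 to 3939 CPM over this step, and their part in the members' changes was not tested. The count was 7 of 7 members up, where 76.8% of 14017 genes were called in either direction.

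Between 48 and 120 h, in whole untreated cultures, all 4 Id genes and Tcf3 fell while Tcf12 rose. Id1 fell to 12.8, 10.04 and 10.6 CPM, by 2.02 on the log2 scale (SE 0.11, adjusted p = 1.1e-06). Id2 fell to 24.7, 17.7 and 17.0 CPM, by 1.89 (SE 0.14, adjusted p = 4.66e-06). Id3 fell to 17.0, 6.97 and 4.76 CPM, by 2.29 (SE 0.37, adjusted p = 0.00046), with replicates further apart than for the other members. Id4 fell by 1.93 (SE 0.47, adjusted p = 0.00522) from a mean of 0.751 CPM to 0.188 CPM. All libraries of these 4 genes at 120 h lay below all at 48 h.

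Tcf3, the E2A gene, fell to 45.2, 31.4 and 18.3 CPM, by 2.08 (4.24-fold, SE 0.26, adjusted p = 9.61e-05), a change of the size seen for the Id genes. Tcf12 rose to 324.0, 326.3 and 406.7 CPM, by 0.79 (1.73-fold, SE 0.11, adjusted p = 0.000169), and no 48 h library reached that range. Tcf4 was at 204.5, 195.3 and 211.2 CPM, a log2 difference of 0.15 (SE 0.08, adjusted p = 0.103). Tcf4 passed the threshold only when transcript length was taken into the model (0.30, adjusted p = 0.0109). Of the 7 members, 5 fell and 1 rose, where 67.1% of 13786 genes were called. Proliferation markers went from 1330 to 292.6 CPM, with 7 of 7 called down, and myoblast markers from 3939 to 4392 CPM, with overlap, and their part was not tested.

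Over this last interval the changes of all genes also moved with the GC content of their transcripts. With genes put into 5 bins of rising GC, the median log2 difference went from 0.383 in the lowest bin to -0.791 in the highest. Tcf3, at 61.5% GC, is in the highest bin, and its log2 change of -2.08 was larger in size than that bin's median. Id1 and Id3 (55.0% and 55.4%) are in the next bin, with a median of -0.185, and Id2 and Tcf12 (46.6% and 46.9%) share the second lowest bin, with a median of 0.235, yet moved opposite ways. Over 0 to 24 h the medians ran only from 0.122 to -0.217, and over 24 to 48 h from -0.291 to 0.336. The part of GC content in the members' changes was not tested.

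**Figure D2:**
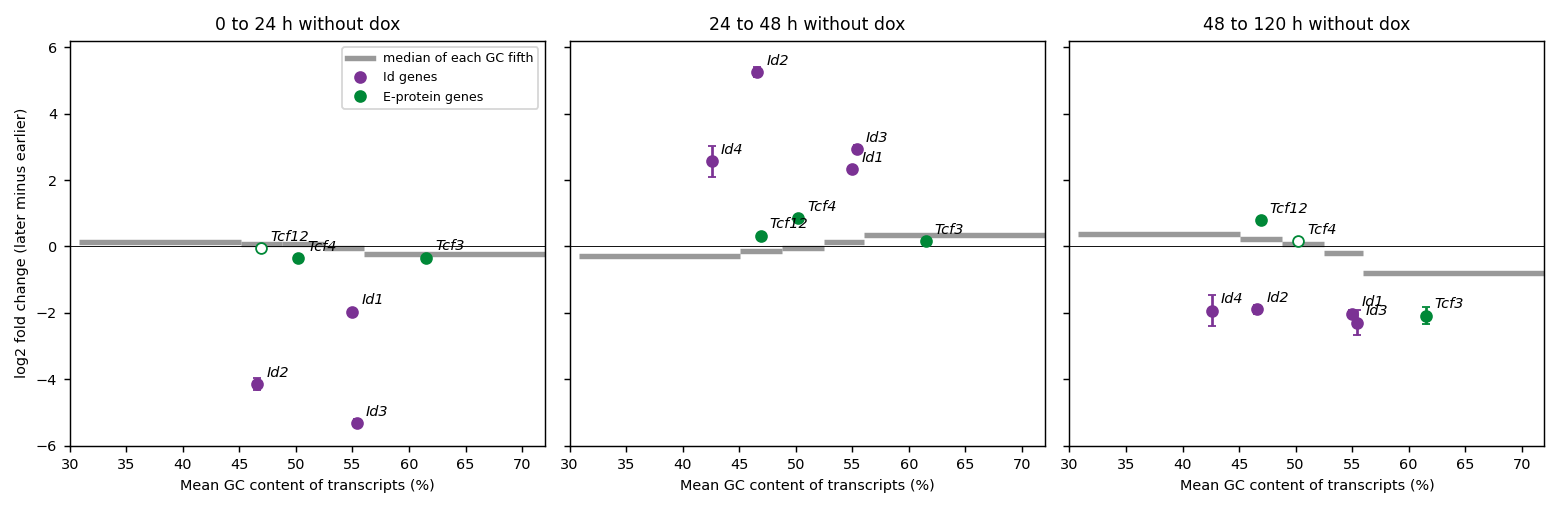
Log2 fold change of each member against the GC content of its transcripts (%) in the 3 untreated intervals, with grey bars for the median of all genes in each of 5 bins of GC content, filled points for adjusted p under 0.05 and open points for the rest. Id1, Id2 and Id3 lie well away from the grey bars in each interval, and Tcf3 at 61.5% GC and Tcf12 at 46.9% lie on opposite sides of 0 from 48 to 120 h.

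Dox changed few members before 48 h. At 0 h 1 of 7 members was called, a fall, where 37.8% of 13550 genes were called. At 24 h 1 of 6 was called, a fall, against 62.8% of 14078 genes. At 48 h 5 of 7 were called, 3 up and 2 down, against 56.6% of 13871 genes. At 120 h, in whole cultures, 3 of 6 were called, 1 up and 2 down, against 45.2% of 13628 genes. The members' counts at 48 and 120 h were near these shares of all genes. Each time point has its own dox and untreated libraries, and the untreated ones are also those of the intervals above.

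**Figure D3:**
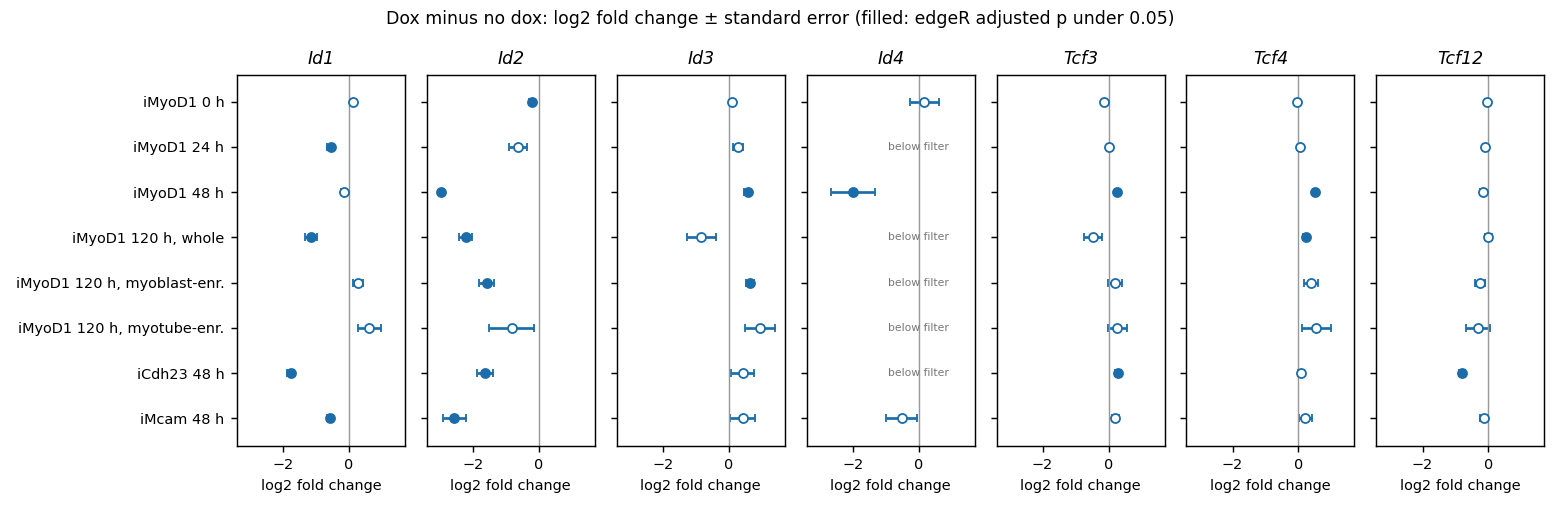
Log2 fold change with dox (± SE) for each member, in each comparison of dox with no dox, with filled symbols for adjusted p under 0.05 and a mark where a member was below the low-count filter. Id2 has negative values in every comparison shown and is called in 6 of the 8, and Id1 is negative and called at 24 h, in whole cultures at 120 h, and in the iCdh23 and iMcam lines.

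Id2 carried the largest dox effect of any member at 48 h. Untreated libraries held 74.0, 74.9 and 73.5 CPM and dox-treated ones 9.48, 9.06 and 10.8 CPM. It fell by 2.95 on the log2 scale (7.75-fold, SE 0.09, adjusted p = 9.17e-09). By 120 h, in whole cultures, Id2 was at 24.7, 17.7 and 17.0 CPM without dox and 4.74, 4.27 and 3.84 CPM with it, and fell by 2.22 (4.66-fold, SE 0.19, adjusted p = 2.69e-05). The groups did not come near each other at either time, and both calls were kept under each alternative run. Before that the effect was small. At 0 h Id2 was at 34.2, 34.0 and 37.5 CPM without dox and at 28.4, 30.6 and 31.8 CPM with dox, and fell by 0.21 (SE 0.07, adjusted p = 0.0323). That call was lost in 8 of 12 alternatives: without the first (adjusted p = 0.0792) or second (0.0699) dox library, without the first (0.0586), second (0.0525) or the third (0.137) untreated library, and in 3 other models. At 24 h Id2 was at 1.46, 1.07 and 1.27 CPM with dox against 2.32, 1.17 and 2.35 CPM, which overlapped (log2 difference -0.63, SE 0.28, adjusted p = 0.0662). Without the second untreated library this became -0.89 with an adjusted p of 0.00692.

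Id1 was lowered by dox at 24 h and in whole cultures at 120 h and was not called at 0 or 48 h. At 24 h it was at 8.77, 9.12 and 9.45 CPM without dox and at 6.02, 5.85 and 7.08 CPM with dox, and fell by 0.55 (SE 0.10, adjusted p = 0.000599). At 48 h the groups overlapped, at 47.0, 45.9 and 44.5 CPM against 36.7, 43.3 and 45.8 CPM (log2 difference -0.15, SE 0.09, adjusted p = 0.186). Id1 in whole cultures at 120 h was at 12.8, 10.04 and 10.6 CPM without dox and 4.47, 5.59 and 5.05 CPM with it, and fell by 1.16 (SE 0.18, adjusted p = 0.00088). At 0 h it was at 37.5, 35.5 and 36.7 CPM without dox and 37.2, 38.6 and 42.9 CPM with it, which overlapped (0.12, adjusted p = 0.192). The dox effect on Id1 at 24 h differed from that at 0 h by -0.71 on the log2 scale (SE 0.12, adjusted p = 0.000137). That was the only called difference between these times, 1 of 7 members tested where 34.1% of 14448 genes were called.

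Id3 went the other way from Id2 at 48 h. Untreated libraries held 49.5, 45.6 and 46.7 CPM and dox-treated ones 59.0, 74.96 and 80.96 CPM, so the groups did not overlap. It rose by 0.58 (1.496-fold, SE 0.11, adjusted p = 0.000956), a call that was lost when all 16 groups shared 1 estimate of spread (adjusted p = 0.237). At 0 h Id3 overlapped, at 244.3 to 267.6 CPM without dox and 256.8 to 294.4 CPM with it (0.10, adjusted p = 0.239). At 24 h it was at 5.08, 5.78 and 7.62 CPM against 8.35, 7.62 and 7.10 CPM with dox (0.29, adjusted p = 0.101), and without the third untreated library this was 0.48 with an adjusted p of 0.00893. For Id3 in whole cultures at 120 h the untreated libraries were spread from 4.76 to 17.0 CPM and the dox-treated from 3.56 to 6.74 CPM, with a log2 difference of -0.83 (SE 0.44, adjusted p = 0.155). Without the third untreated library that difference was -1.16 with an adjusted p of 0.0193. Id4, at 13, 16 and 14 counts without dox and 0, 16 and 5 counts with dox at 48 h, fell by 2.00 (SE 0.68, adjusted p = 0.0273). Those dox libraries were of different depth, and Id4 stood at 0, 0.323 and 0.246 CPM in them against 0.772, 0.857 and 0.625 CPM. The Id4 call was lost without the first (0.0756), second (0.0885) or the third (0.0534) untreated library.

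Among the E-protein genes, 2 rose with dox at 48 h. In that comparison Tcf4 was at 184.1, 190.5 and 182.8 CPM without dox and 248.2, 275.4 and 277.7 CPM with it, and rose by 0.51 (1.42-fold, SE 0.06, adjusted p = 6.92e-05). Tcf3 was at 136.1, 129.9 and 140.2 CPM against 165.3, 155.7 and 169.8 CPM and rose by 0.26 (SE 0.07, adjusted p = 0.00695). The Tcf3 change was close to the median of its GC bin in the same comparison, 0.222, and the part of GC content in it was not tested. The Tcf4 and Tcf3 calls were lost when all 16 groups shared 1 estimate of spread (adjusted p = 0.0662 and 0.302). Tcf12 overlapped at 48 h, at 198.1, 212.7 and 207.1 CPM against 213.1, 183.0 and 159.4 CPM (-0.17, SE 0.09, adjusted p = 0.147), and without the first dox library it was -0.28 with an adjusted p of 0.00177. At 0 and 24 h none of the 3 was called, with log2 differences from -0.14 to 0.04. Without the third dox library at 0 h, however, Tcf3 was called with -0.19 (adjusted p = 0.0307).

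In whole cultures at 120 h Tcf4 was at 204.5, 195.3 and 211.2 CPM without dox and 248.1, 231.7 and 237.4 CPM with it. The groups were apart, and Tcf4 rose by 0.22 (SE 0.08, adjusted p = 0.0445), a call lost in 10 of 12 alternatives. It was lost without the first (0.0675) or second (0.175) untreated library and without the first (0.136), second (0.0878) or the third (0.121) dox library. Tcf3 was at 45.2, 31.4 and 18.3 CPM against 19.8, 25.4 and 24.4 CPM (-0.46, SE 0.27, adjusted p = 0.203), and without the third untreated library, the lowest of its group, it was -0.74 with an adjusted p of 0.00373. Tcf12 gave a log2 difference of -0.0018 (SE 0.11, adjusted p = 0.990), from 324.0, 326.3 and 406.7 CPM without dox and 384.0, 331.3 and 350.0 CPM with it.

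Marker sums moved with dox at the same times. At 48 h the 10 myotube markers summed to a mean of 13260 CPM without dox and 5193 with it, and 7 proliferation markers to 1330 and 462 CPM. The sums in whole cultures at 120 h were 16740 and 13050 CPM for myotube markers and 292.6 and 495.1 for proliferation markers. The 7 myoblast markers summed to 3939 and 2711 CPM at 48 h and to 4392 and 2469 CPM in whole cultures at 120 h, with no overlap at either time. The part of these shifts in the changes of Id1, Id2, Id3, Tcf3 and Tcf4 was not tested.

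In the strained fractions at 120 h the same pair of opposite Id changes was seen in the myoblast-enriched cells. Id2 was at 47.2, 37.3 and 42.2 CPM without dox and at 10.6 and 17.4 CPM in the 2 dox libraries, and fell by 1.58 (3.00-fold, SE 0.24, adjusted p = 0.0212). Id3 was at 75.6, 73.2 and 77.6 CPM against 111.6 and 122.1 CPM, and rose by 0.64 (1.56-fold, SE 0.12, adjusted p = 0.035). These were 2 of 6 members, 1 up and 1 down, where 4.34% of 14249 genes were called. With dox the myotube markers in this fraction went from a mean of 7518 CPM (5541 to 8979) to 5351 (5201 to 5501), proliferation markers from 861.5 (482 to 1250) to 572 (376 to 768) and myoblast markers from 2672 (2515 to 2918) to 2528 (2455 to 2600), and their part in the Id2 and Id3 changes was not tested. Both calls rest on few libraries. Id2 was lost without the third untreated library (adjusted p = 0.0964) and without the second (0.142) or the third (0.0509) dox library. Id3 was lost without these (0.146, 0.212 and 0.154) and without the first untreated library (0.0534), and also when all 16 groups shared 1 estimate of spread (0.384).

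In the myotube-enriched cells no gene was called with dox, 0 of 6 members and 0% of 14112 genes by edgeR, with 79 genes at an unadjusted p under 0.05 and 2 called by DESeq2. Id2 was spread from 5.70 to 52.9 CPM without dox and from 12.03 to 26.1 CPM with it. The first dox library held 61.0 CPM of Id1, 467.9 CPM of Tcf4 and 82.1 CPM of Tcf12, where the other 2 held 27.6 and 34.2, 168.9 and 176.0, and 176.8 and 212.5 CPM. It is the library with the lowest correlation in a group whose 3 libraries all differed, and the Tcf4 difference of 0.55 became -0.15 without it, 0.80 without the second and 0.77 without the third. Without that library the difference was 0.18 in place of 0.62 for Id1, 0.60 in place of 0.94 for Id3, -0.69 in place of -0.82 for Id2, 0.13 in place of 0.27 for Tcf3 and -0.011 in place of -0.31 for Tcf12. The dox effects in the 2 fractions did not differ by a called amount for any of the 6 members tested, with 0% of 15008 genes called by edgeR, 218 at an unadjusted p under 0.05 and 2 called by DESeq2. The standard errors of these differences ran from 0.37 to 0.90 on the log2 scale, so differences of that size were not detectable here.

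Between the untreated fractions, Id3 was lower in the myotube-enriched cells, at 35.0, 32.9 and 36.4 CPM against 75.6, 73.2 and 77.6 CPM in the myoblast-enriched cells. It fell by 1.10 on the log2 scale (2.14-fold, SE 0.13, adjusted p = 0.0286), the only call among 6 members, where 0.592% of 14023 genes were called. The call was lost without the third myotube-enriched library (0.104) and without the first (0.131), second (0.103) or the third (0.147) myoblast-enriched one, with values of -1.08 to -1.12. With the replicate number as a block, which paired the samples here, Id3 had an adjusted p of 0.00912 and was again the only member called, where 4.82% of genes were. Id1 was at 26.7, 25.8 and 29.3 CPM against 36.2, 42.4 and 44.0 CPM (-0.56, SE 0.14, adjusted p = 0.128), groups that did not overlap. Id1 was called by DESeq2 (-0.57, adjusted p = 0.0403) and with all 16 groups in 1 fit (-0.57, adjusted p = 0.0139). The myotube markers summed to a mean of 19160 CPM in the retained material and 7518 in the flow-through. The 7 myoblast markers were also higher in the retained material, at 4326 CPM (3801 to 5004) against 2672 (2515 to 2918), although none of the 7 was called. Their sum was 778.6 CPM in untreated growth medium, 3939 at 48 h and 4392 in whole cultures at 120 h. It was thus higher in differentiated cultures and does not tell unfused myoblasts from myotubes here. Proliferation markers summed to 412 CPM (192.0 to 681) and 861.5 CPM (482 to 1250), which overlapped. The part of these differences in Id3 and Id1 was not tested.

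The untreated whole culture lay outside both its fractions for several members. Tcf3 averaged 31.6 CPM in the whole culture, 116 in the myoblast-enriched and 86.1 in the myotube-enriched cells. Id3 averaged 9.59 CPM against 75.5 and 34.8, and Id1 11.1 CPM against 40.9 and 27.3. Tcf12 lay above, at 352 CPM against 242 and 196. The fractions had gone through trypsin and the strainer and the whole cultures had not, and no test was made between them. Whole cultures were also deposited apart from the fractions. Gene changes from 48 h to the whole cultures at 120 h moved with GC content, as given above. The part of either in these gaps was not tested.

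At 48 h the adhesion lines shared the fall of Id2 with dox. In the iCdh23 line Id2 was at 35.9, 46.9 and 51.7 CPM without dox and 9.68, 15.5 and 18.5 CPM with it, and fell by 1.62 (3.08-fold, SE 0.24, adjusted p = 0.00077). In the iMcam line it was at 34.1, 27.5 and 62.2 CPM without dox and 8.57, 4.79 and 7.05 CPM with it, and fell by 2.56 (5.90-fold, SE 0.34, adjusted p = 0.00102). In both lines every dox library was below every untreated one. Untreated Id2 was lower there than in untreated iMyoD1 cells, which were deposited apart, and this difference was not tested. Id1 fell in both as well. It was at 30.2, 32.6 and 33.5 CPM against 9.89, 8.97 and 9.49 CPM in the iCdh23 line, and fell by 1.77 (3.40-fold, SE 0.10, adjusted p = 1.07e-05). In the iMcam line it was at 27.8, 25.5 and 26.4 CPM against 17.3, 17.7 and 17.1 CPM, and fell by 0.57 (SE 0.09, adjusted p = 0.002).

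Id3 varied widely among untreated libraries of both lines, from 26.8 to 83.1 CPM (iCdh23) and from 36.4 to 100.8 CPM (iMcam). With dox it was at 67.0 to 89.7 and at 69.4 to 118.7 CPM, with log2 differences of 0.42 (SE 0.36, adjusted p = 0.331) and 0.42 (SE 0.37, adjusted p = 0.368). In the iMcam line the replicate numbers paired the samples, and with the block Id3 rose by 0.49 (adjusted p = 0.0323) and Tcf3 by 0.20 (adjusted p = 0.0405). Id4 was tested only in the iMcam line, at means of 0.607 CPM without dox and 0.409 with it (-0.51, adjusted p = 0.384).

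Among the E-protein genes, Tcf12 fell with dox in the iCdh23 line, from 261.0, 289.8 and 282.6 CPM to 152.3, 162.4 and 164.6 CPM, by 0.80 (1.74-fold, SE 0.09, adjusted p = 0.000157). Tcf3 rose there from 136.0, 135.4 and 113.7 CPM to 160.0, 154.4 and 156.2 CPM, by 0.29 (SE 0.10, adjusted p = 0.0343), beside a median of 0.248 for its GC bin. This Tcf3 call was lost without the second (0.0686) or the third (0.0616) untreated library and without the first (0.0904), second (0.0618) or the third (0.0972) dox library. Tcf4 overlapped in the iCdh23 line (0.08, adjusted p = 0.526). In the iMcam line Tcf4 (0.21, adjusted p = 0.393) and Tcf12 (-0.15, adjusted p = 0.321) overlapped too. The counts were 4 of 6 members in the iCdh23 line, 1 up and 3 down, where 63.8% of 14227 genes were called, and 2 of 7 in the iMcam line, both down, where 49% of 13730 were called. With the replicate number as a block, which paired the iMcam samples, the count there was 4 of 7, 2 up and 2 down, where 58% were called. Myotube markers went from 6779 to 69.1 CPM with dox in the iCdh23 line and from 5982 to 858 in the iMcam line. Proliferation markers went from 989 to 64.0 and from 842 to 143 CPM, and the 7 myoblast markers from 2922 to 522.6 and from 2655 to 897 CPM. The part of these shifts in the members' changes was not tested.

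The dox effects of the iCdh23 and iMyoD1 lines at 48 h differed for 4 of 7 members, where 35.8% of 14825 genes were called. The iCdh23 effect minus the iMyoD1 effect was -1.60 on the log2 scale for Id1 (SE 0.13, adjusted p = 1.78e-06) and -0.61 for Tcf12 (SE 0.14, adjusted p = 0.0038), genes that fell with dox in the iCdh23 line and were not called at 48 h in the iMyoD1 line. For Id2 it was 1.35 (SE 0.27, adjusted p = 0.00175), with Id2 falling less in the iCdh23 line. For Tcf4 it was -0.42 (SE 0.12, adjusted p = 0.0163), with Tcf4 called up in the iMyoD1 line. For Id4 it was 2.76 (SE 1.05, adjusted p = 0.0567), and it was called without the first (0.0206) or second (0.0271) iMyoD1 dox library. Id3 and Tcf3 gave differences of -0.15 (SE 0.41, adjusted p = 0.812) and 0.05 (SE 0.12, adjusted p = 0.793).

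Between the iMcam and iMyoD1 lines 0 of 7 members differed by the test, where 6.41% of 14488 genes were called. The difference was -0.43 for Id1 (SE 0.13, adjusted p = 0.0666), and it was called without the first iMyoD1 dox library (-0.53, adjusted p = 0.014) and by DESeq2 (-0.43, adjusted p = 0.0433). For Id2 it was 0.38 (SE 0.36, adjusted p = 0.552), and without the third untreated iMcam library, the highest in its group for Id2, it was 0.80 with an adjusted p of 0.0391. For Tcf4 it was -0.30 (SE 0.22, adjusted p = 0.425), and -0.49 with an adjusted p of 0.0488 without that same library. Both of these comparisons between lines use the same iMyoD1 libraries. Those libraries were deposited apart from the adhesion lines, so line and deposited set go together in both.

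Summed per length, the Id genes and the E-protein genes changed place over differentiation. These sums treat transcripts, not proteins, and are given as a description with no test. TPM carries no TMM factor, so the sums can shift between libraries with the scaling, whereas the ratio of both sums within a library does not. The 4 Id genes summed to a mean of 516 TPM in untreated growth medium, 25.7 at 24 h, 236 at 48 h and 66.5 in whole cultures at 120 h. The 3 E-protein genes summed to group means of 169.5 to 395 TPM over all 16 groups (146.0 to 417 in single libraries). The ratio of the Id sum to the E-protein sum was 2.06 ± 0.06 (SD, n = 3) at 0 h, 0.153 ± 0.026 at 24 h, 1.11 ± 0.02 at 48 h and 0.229 ± 0.076 at 120 h. In untreated iMyoD1 whole cultures the Id sum was thus above the E-protein sum at 0 and 48 h and below it at 24 and 120 h. Its return from 24 to 48 h cannot be told apart from the batch.

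With dox the ratio was 2.31 ± 0.12 at 0 h, 0.127 ± 0.006 at 24 h, 0.727 ± 0.116 at 48 h and 0.0850 ± 0.0144 in whole cultures at 120 h. At 48 h the dox libraries ran from 0.596 to 0.819 and the untreated from 1.10 to 1.13. At 120 h they ran from 0.0686 to 0.0954 and from 0.170 to 0.315. The groups were apart at both times. They were also apart at 24 h, with dox libraries at 0.120 to 0.133 and untreated at 0.134 to 0.183, and at 0 h, where the dox libraries were the higher, at 2.23 to 2.45 against 1.99 to 2.09. In the myoblast-enriched cells the ratio was 1.11 ± 0.11 without dox and 1.23 ± 0.07 with it (n = 2), in the myotube-enriched cells 0.725 ± 0.208 and 0.788 ± 0.099, in the iCdh23 line 0.777 ± 0.085 and 0.636 ± 0.105, and in the iMcam line 0.782 ± 0.151 and 0.618 ± 0.218. As groups the dox and untreated libraries overlapped in each of the 2 adhesion lines, but within the iMcam pairs the ratio was lower with dox in 3 of 3 (0.899 to 0.870, 0.612 to 0.495 and 0.836 to 0.489).

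**Figure D4:**
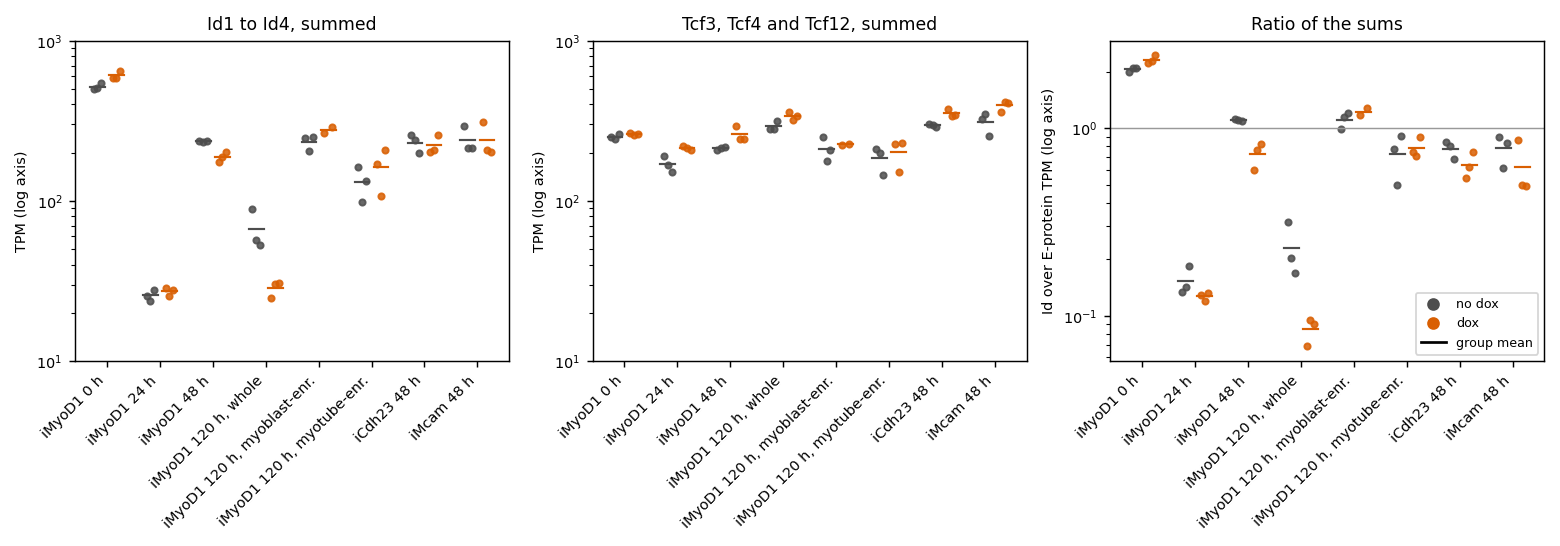
Summed TPM of the 4 Id genes, summed TPM of the 3 E-protein genes, and their ratio in each library (log axes), by group, with points for libraries and lines for group means, grey for no dox and orange for dox. Group means of the ratio run from 0.0850 in dox-treated whole cultures at 120 h to 2.31 in dox-treated cells at 0 h, those of the Id sum from 25.7 to 607 TPM and those of the E-protein sum from 169.5 to 395 TPM.

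The make-up of the Id sum changed as well. Id3 gave 75.4% of Id TPM in untreated growth medium and 26.1% at 48 h, where Id2 gave 40.2% and Id1 33.6%. At 24 h, with all of them low, Id1 gave 59.8%. Changes of these shares up to 48 h also cross the batch. With dox at 48 h the Id2 share was 7.07% and the Id3 share 52.2%. The Id2 share was lower with dox in the adhesion lines too, 31.5% without and 13.6% with dox (iCdh23) and 29.5% and 5.81% (iMcam). It was also lower in the whole cultures at 120 h (45.2% and 25.9%) and in the myoblast-enriched cells (24.1% and 6.88%). Id4 gave group means of 0.0294% to 0.195%, except 0.373% in dox-treated whole cultures at 120 h, where its libraries ran from 0% to 0.710%.

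Levels set side by side across the 3 deposited tables rest on scaling factors computed over all libraries together. In the order of group means, Id2 was highest in untreated iMyoD1 cells at 48 h (74.1 CPM), with no library of another group as high, and lowest with dox at 24 h (1.27 CPM). Id3 was highest in growth medium with dox (270 CPM) and without (254 CPM), groups that overlapped each other and no other. Its next group was the dox-treated myoblast-enriched cells (117 CPM). Its lowest 4, both 24 h groups and both whole cultures at 120 h, overlapped in a chain at means of 5.44 to 9.59 CPM. Within that chain, dox-treated cells at 24 h (7.10 to 8.35 CPM) and dox-treated whole cultures (3.56 to 6.74 CPM) did not overlap. Id1 had its highest mean in dox-treated myoblast-enriched cells (48.8 CPM, 2 libraries at 44.7 and 53.0), which overlapped untreated cells at 48 h (45.8 CPM) and the dox-treated myotube-enriched cells, whose highest library was at 61.0 CPM, and it was lowest in dox-treated whole cultures at 120 h (5.03 CPM). Tcf3 was highest with dox at 48 h (164 CPM), and its groups overlapped in a chain down to the untreated myotube-enriched cells (86.1 CPM), below which came a gap to the whole cultures at 120 h (31.6 and 23.2 CPM). Tcf12 was highest in those same whole cultures (355 CPM with dox and 352 without), which overlapped each other and no other group. Tcf4 was highest in the dox-treated myotube-enriched cells (271 CPM, through 1 library) and with dox at 48 h (267 CPM), and lowest in untreated cells at 24 h (103 CPM).

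The long E-protein genes have several annotated starts, and the share of each gene's counts given to each start was followed as a description, since salmon estimates how reads divide among overlapping transcripts. Tcf12 had 21 transcripts in the tables, of which 13 begin at chr9:72109724-72111871 and 4 at an internal start, chr9:71895985-71896396. The internal start held 2.13% of Tcf12 counts in untreated growth medium, 1.52% at 24 h, 8.71% at 48 h and 14.9% in whole cultures at 120 h. In CPM these means were 3.74, 2.53, 18.03 and 53.1. As for the genes, the step from 24 to 48 h cannot be told apart from the batch. The libraries ran from 12.9 to 21.9 CPM at 48 h and from 44.4 to 68.0 CPM at 120 h, so these groups were apart. With dox at 48 h it was 3.65% and 6.92 CPM (4.59 to 10.01 CPM), below every untreated 48 h library, while Tcf12 as a whole overlapped. With dox in whole cultures at 120 h it was 12.1% and 43.0 CPM (39.2 to 45.9 CPM), which overlapped the untreated libraries. In the myoblast-enriched cells the mean was 31.6 CPM without dox (26.0 to 36.2) and 12.3 CPM with it (2.43 and 22.1). Dox and untreated libraries of the adhesion lines overlapped at 48 h. The internal start was at 11.55 to 29.15 CPM without dox and 8.566 to 13.42 with it (iCdh23), and at 13.0 to 18.77 and 5.921 to 14.13 (iMcam).

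From 48 h on most of this came from 1 transcript, Tcf12-207, listed at 0% of the gene at 0 and 24 h and at 7.94% at 48 h without dox, 2.09% at 48 h with dox and 13.9% at 120 h without. Its appearance after 24 h coincides with the change of batch. Among the transcripts from the main start, Tcf12-201 went from 61.5% at 0 h to 42.1% at 48 h and 16.4% at 120 h, and Tcf12-221 from 25.7% to 24.9% and 55.9%. Tcf3, with 14 transcripts, had 20.2% of its counts at an internal start of 3 transcripts in untreated whole cultures at 120 h (2.93% to 37.4% among libraries) and 21.9% with dox there. Elsewhere that Tcf3 start held at most 6.33%, except 15.3% in the dox-treated myotube-enriched cells (0.408% to 45.02%). For Tcf4, with 59 transcripts, Tcf4-202 held 57.2% to 69.3% in every group, and the start of the longest forms held 12.9% at 48 h without dox and 17.2% with it. The Id genes are short, with 1 to 3 transcripts, and Id3-201 held 91.6% to 98.7% of Id3 and Id1-201 85.7% to 98.1% of Id1.

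**Figure D5:**
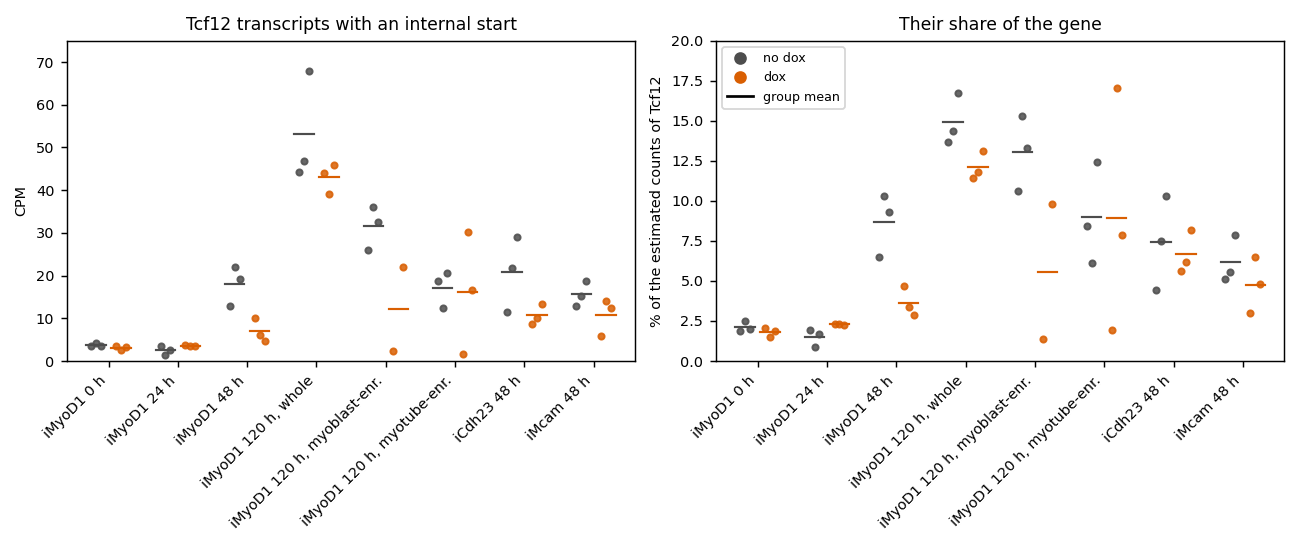
Estimated counts from the internal start of Tcf12, as CPM and as a share of all Tcf12 counts (%), in each library by group, with points for libraries and lines for group means, grey for no dox and orange for dox. The start is near 2% of the gene at 0 and 24 h and at 14.9% in untreated whole cultures at 120 h, and at 48 h the iMyoD1 dox libraries (4.59 to 10.01 CPM) lie below the untreated (12.9 to 21.9 CPM). Time from 24 to 48 h cannot be told apart from the batch.

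Among the bHLH partners, the 4 myogenic factor genes fell wherever they were called with dox. At 48 h all 3 that were tested fell, Myog (Myogenin, the differentiation factor) from a mean of 1679 to 601 CPM by 1.496 on the log2 scale, Myf5 by 0.48 and Myod1 by 0.36. Their median was thus -0.48, against 0.011 over all genes, of which 56.6% were called. In whole cultures at 120 h 2 of 4 fell, beside 45.2% of all genes called, where Myog fell by 2.58 from 2319 to 390 CPM and Myod1 fell by 1.62. In the iCdh23 line all 3 tested fell, beside 63.8% of all genes called, and Myog fell by 7.26 from 1135 to 7.35 CPM. In untreated cells from 24 to 48 h 2 of 3 tested rose and 1 fell, beside 76.8% of all genes called. Myog rose from 4.89 to 1679 CPM by 8.43 and Myod1 by 1.53, and Myf5 fell by 0.29. From 0 to 24 h 2 of 3 rose and 1 fell, and from 48 to 120 h 1 rose and 2 fell, beside 74.3% and 67.1%.

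Of 23 other bHLH genes, 10 were tested at 48 h with dox, of which 8 fell and 2 rose, with a median log2 difference of -0.85 over those tested against 0.011 over all genes, of which 56.6% were called. At 0 h 2 of 9 rose and 4 fell, at 24 h 1 of 8 rose and 5 fell, and in the myoblast-enriched cells 4 of 11 fell and 0 rose, beside 37.8%, 62.8% and 4.34% of all genes called. At 48 h Hey1 and Heyl, Notch-responsive repressors, fell by 2.95 (38.7 to 5.10 CPM) and fell by 2.73 (122.5 to 18.6 CPM), and Bhlhe40, a repressor, by 2.32. In whole cultures at 120 h 8 of 10 fell and 0 rose, in the iMcam line also 8 of 10 and 0, and in the iCdh23 line 9 of 11 fell and 1 rose, with medians of -0.79, -1.87 and -2.57 where 45.2%, 49% and 63.8% of all genes were called. In untreated cells 6 of 8 fell and 0 rose from 0 to 24 h, 9 of 10 rose and 1 fell from 24 to 48 h, and 7 of 10 fell and 2 rose from 48 to 120 h, with medians of -0.70, 3.29 and -1.24 where those of all genes were 0.014, -0.020 and -0.028 and 74.3%, 76.8% and 67.1% of all genes were called.

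In the BMP list of 31 genes, the called members mostly fell in the first step and rose in the next. From 0 to 24 h 20 of 26 tested fell and 2 rose (median log2 difference -0.66), where 74.3% of all genes were called, with falls and rises near equal in number. The falls included Smad6, an inhibitory Smad, by 2.60 (19.3 to 3.09 CPM) and Bmp4, a ligand, by 2.35 from 78.6 CPM. From 24 to 48 h 17 of 26 rose and 4 fell (median 0.52), where 76.8% of all genes were called, and the antagonists Chrd and Fst rose by 3.68 and 3.60. From 48 to 120 h 10 rose and 8 fell (median -0.076), against 67.1% of all genes called, with Smad6 falling by 3.72 and Bmp4 by 1.68. With dox the list was divided, with 6 up and 7 down of 25 at 0 h, 7 and 9 of 25 at 24 h, 6 and 10 of 25 at 48 h, 5 and 6 of 26 in whole cultures, 6 and 12 of 25 in the iCdh23 line and 5 and 10 of 27 in the iMcam line, and its median lay between -0.35 in the iCdh23 line and 0.053 at 0 h. These calls took in 13 of 25, 16 of 25, 16 of 25, 11 of 26, 18 of 25 and 15 of 27 genes, where 37.8%, 62.8%, 56.6%, 45.2%, 63.8% and 49% of all genes were called. Grem1, a BMP antagonist, fell with dox by 1.60 at 0 h (265 to 87.0 CPM), by 2.89 at 24 h (225 to 30.9 CPM) and by 1.48 in the myoblast-enriched cells, where it was the only call of 29 beside 4.34% of all genes called.

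For the turnover of Id and E-proteins, 4 genes were listed (the deubiquitinase Usp1, its cofactor Wdr48, and the activators Fzr1 and Cdc20 of the anaphase-promoting complex). With dox at 48 h 2 of 4 fell and 0 rose, a share below the 56.6% of all genes called, Cdc20 by 1.76 (103 to 31.0 CPM) and Usp1 by 0.98 (80.8 to 41.5 CPM), with a median of -0.52 over the 4. Of the same 4 genes, 0 rose and 3 fell with dox at 0 h, 1 rose and 2 fell at 24 h and in each adhesion line, and none was called in whole cultures at 120 h. Beside these counts, 37.8% of all genes were called at 0 h, 62.8% at 24 h, 63.8% in the iCdh23 line, 49% in the iMcam line and 45.2% in whole cultures. Of 7 co-regulators of E-proteins, 6 were tested at 48 h with dox, of which 4 rose and 1 fell, Ldb1 up by 0.82, Crebbp up by 0.63 and Cbfa2t3 down by 1.47 (23.6 to 8.57 CPM), with a median of 0.35 and the same 56.6% of all genes called. With dox 2 of 5 rose and 0 fell at 0 h, 2 of 5 rose and 1 fell at 24 h, 3 of 6 rose and 2 fell in whole cultures, 4 of 6 rose and 2 fell in the iCdh23 line, and 4 of 6 rose and 1 fell in the iMcam line. In that order, 37.8%, 62.8%, 45.2%, 63.8% and 49% of all genes were called. Of 7 cell cycle inhibitor genes, some of which E-proteins are known to activate and Id proteins to hold down, 5 were tested at 48 h, of which 4 fell and 1 rose (median -0.85), again beside 56.6%. Cdkn1a, encoding p21, fell by 1.26 (1415 to 596 CPM), as did Cdkn2c by 1.26 and Cdkn1c by 0.85. In the iCdh23 line Cdkn1a fell by 4.48 (913 to 40.9 CPM). The list went the other way with dox at 24 h, where 4 of 5 rose and 1 fell (median 0.45) beside 62.8% of all genes called, and in whole cultures at 120 h 2 rose and 1 fell (median 0.24) beside 45.2%. At 0 h 1 rose and 2 fell beside 37.8%, and in each adhesion line 1 rose and 3 fell, beside 63.8% (iCdh23) and 49% (iMcam). In untreated cells from 0 to 24 h Cdkn1a rose by 2.52 while the other 4 inhibitor genes tested fell, Cdkn1c by 2.22, Cdkn2d by 1.52, Cdkn2c by 1.45 and Cdkn1b by 0.54, so the list had a median of -1.45, beside 74.3% of all genes called. From 24 to 48 h 4 of 5 rose and 0 fell, and from 48 to 120 h 1 rose and 3 fell, beside 76.8% and 67.1%.

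Over the 16 group means, the members followed one another only in part, given here as a description over groups that share lines and, within a table, processing. Pearson's r on log2 levels was 0.778 for Id1 and Id3, 0.733 for Id1 and Id2, 0.615 for Id2 and Id3, 0.660 for Id3 and Tcf3, and -0.703 for Tcf3 and Tcf12. Of 9806 genes ranked by likeness, those closest to Id1 were Fzd2 (0.938), Anxa5 (0.906) and Scx (0.904), a bHLH gene of tendon. Closest to Id2 were Fblim1 (0.907), Jup (0.904) and Ltbp2 (0.896), and to Id3 Nab2 (0.941), Mgst3 (0.921) and Elk3 (0.908). Tcf3 was followed most closely by Rfx1 (0.981), Srsf9 (0.977) and Lrfn4 (0.976), Tcf12 by Zfp280d (0.953), Ctnnd1 (0.917) and March8 (0.915), and Tcf4 by Ttyh2 (0.932), Nek6 (0.918) and Ttc28 (0.910). Id4, at its low level, had no gene above 0.782 (Ckap4).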

How the data were processed

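Poly(A) RNA was sequenced paired-end. Per the labels and the study's methods, the authors ran nf-core/rnaseq on mm10 with Salmon, and deposited 3 tables of estimated counts per transcript (109617 transcripts), which need not be whole. The version of Salmon and the strand setting are not given in the sources used here. Counts were summed per gene identifier (45706 genes, 45143 with a symbol), rounded, and tested with edgeR 4.0.16 in R 4.3.3 (filterByExpr, TMM, quasi-likelihood, Benjamini-Hochberg, threshold 0.05) on the groups compared, 12 pairs of groups and 4 differences of dox effects. DESeq2 1.42.0 was an alternative, beside RLE scaling, no low-count filter, a replicate block, a length offset, all groups in 1 fit and leaving out each library. The fit of all groups was run for the 12 pairs of groups and not for the 4 differences. Standard errors are the size of the log2 difference over the square root of F. CPM used TMM factors over all 47 libraries, and TPM used GENCODE vM21 lengths, which 98.72% of transcripts had. GC content and positions are from the same annotation.

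Replicates were called biological in the labels, but which cultures they came from is not said, so p-values measure the spread between these libraries. An exact permutation test of 3 against 3 libraries cannot go below p = 0.1 and was not used. No replicate pair of the 46 was alike within sampling noise (chi-square per gene 3.04 to 410.5). Counting error only is covered where a count of 0 is named. Replicate numbers were taken to pair samples where there were 3 pairs or more and every pair's deviations correlated above 0.1, which held for the iMcam dox effect (0.345 to 0.488) and the untreated fractions (0.194 to 0.513). The myoblast-enriched dox effect, at 0.381 to 0.539, had only 2 pairs.

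The members and lists were chosen with earlier results of these data known. Named genes were the members, the induced genes, up to 3 genes per list and comparison with the largest called change at a mean of at least 5 CPM in 1 group, a few of which are given in other comparisons too, and the 3 genes with the highest correlation to each member over group means of log2(CPM + 1), among genes averaging at least 10 CPM. The edgeR fit was run on simulated counts for the iMyoD1 dox effects at 48 h and in myoblast-enriched cells and for the iCdh23 minus iMyoD1 difference. Other comparisons and the alternative models were not simulated.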

Additional observations from a re-analysis of the deposited data

Results flagged for a closer look

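For 5 results the effect of dox differed between times or lines by a test of the difference itself (edgeR's quasi-likelihood test, Benjamini-Hochberg adjusted, log2 scale), and each was called under every alternative run. The fit of all groups together was not among those alternatives, being run only for pairs of groups. For Id1 the effect at 24 h minus that at 0 h was -0.71 (adjusted p = 0.000137), with every dox library at 24 h below every untreated one. The iCdh23 effect minus the iMyoD1 effect at 48 h was -1.60 for Id1 (adjusted p = 1.78e-06), 1.35 for Id2 (adjusted p = 0.00175), -0.42 for Tcf4 (adjusted p = 0.0163) and -0.61 for Tcf12 (adjusted p = 0.0038). In the iCdh23 line Cdh23 was already high without dox, at 347.7 to 450.6 CPM, and its myotube markers fell from a mean of 6779 to 69.1 CPM with dox. Their part in these differences, and that of the separate deposit of both lines, was not tested. Groups of 2 or 3 libraries were too small for a test of single outlying values.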

How the results depend on the processing

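Of 104 tested results for members, 42 were called, 28 of these under each alternative run, and none of the 42 changed direction in any of them; 17 results that were not called passed the threshold under at least 1 alternative, and 15 changed sign in at least 1. Of 1371 alternative values for members, 1260 kept direction and side of the threshold. Differences of dox effects had no fit of all groups together among their alternatives. The calls of Id2 at 48 h and in whole cultures at 120 h and those of Id1 at 24 h, in whole cultures and in both adhesion lines were among the 28. The fit sharing 1 spread over all 16 groups ended 11 calls, with dox those of Id2 at 0 h (adjusted p = 0.839), of Id3, Tcf3 and Tcf4 at 48 h, of Tcf4 in whole cultures (0.430), of Id3 in myoblast-enriched cells (0.384) and of Tcf3 in the iCdh23 line (0.185), and without dox those of Tcf3 and Tcf4 from 0 to 24 h and of Tcf3 and Tcf12 from 24 to 48 h. Depth limits Id4, at 3 counts or fewer in 14 libraries. The cause of the shifts below was not tested.

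Counts of genes called moved by more than 1.5 times as follows. With all groups in 1 fit the dox effect gave 828 genes at 0 h, 4782 at 24 h, 4803 at 48 h and 4 in myotube-enriched cells, and the untreated fractions differed at 1637. With DESeq2 the dox effect gave 1569 genes in myoblast-enriched and 2 in myotube-enriched cells, the untreated fractions differed at 765, the fractions' dox effects at 2 and the iMcam and iMyoD1 effects at 1521. With no low-count filter the counts were 1981 and 1 for the dox effect in myoblast- and myotube-enriched cells and 461 between untreated fractions. With the replicate block they were 4051 for the dox effect in myoblast-enriched cells, where only 2 pairs exist, both with correlated deviations (0.381 to 0.539), and 676 between untreated fractions. In that block the myoblast-enriched cells also gained Tcf3 (0.42, adjusted p = 0.0175), at 24 h Id2 passed (-0.62, adjusted p = 0.0484), at 24 to 48 h Tcf3 was lost (adjusted p = 0.0504) and in whole cultures Tcf4 was lost (0.151). At 24 h, from 24 to 48 h and in whole cultures the samples share only a number, and with 2 pairs the myoblast-enriched numbers were not taken as pairs, although each library there was most like its own number. Beyond these and the iMcam values given above the block changed no member's call. Leaving out single libraries gave 0 to 788 genes for the dox effect in myoblast-enriched cells, 0 to 249 between untreated fractions and 386 to 1764 between the iMcam and iMyoD1 effects.

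The sign turned only in differences that were not called. In whole cultures at 120 h the Tcf12 dox effect was 0.0038 with the replicate block, 0.0033 with the length offset and 0.0069 with all groups in 1 fit. At 24 h that of Tcf3 was -0.0052 with the length offset and -0.020 with all groups in 1 fit. With the replicate block the difference between the fractions' dox effects was -0.13 for Tcf3 and -0.11 for Tcf4. With no low-count filter the iCdh23 minus iMyoD1 difference was -0.00087 for Tcf3 and the iMcam minus iMyoD1 difference -0.019 for Tcf12. With single libraries left out, ranges crossing 0 were, for dox effects, -0.16 to 0.48 (Id4, 0 h), -0.023 to 0.027 (Tcf3, 24 h), -0.064 to 0.11 (Tcf12, whole cultures), -0.014 to 0.69 (Tcf4, myoblast-enriched) and -0.15 to 0.80 (Tcf4, myotube-enriched). For Id2 between untreated fractions the range was -1.09 to 0.057. For the difference between the fractions' dox effects it was -0.098 to 0.54 (Id1), -0.050 to 0.67 (Id3), -0.17 to 0.26 (Tcf3), -0.55 to 0.51 (Tcf4) and -0.34 to 0.23 (Tcf12). For iCdh23 minus iMyoD1 it was -0.50 to 0.22 (Id3) and -0.041 to 0.091 (Tcf3), and for iMcam minus iMyoD1 -0.49 to 0.27 (Id3) and -0.10 to 0.13 (Tcf12).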
